A study of Mus musculus with 74 samples.

Results

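The Zscan4 gene cluster is a group of near-identical genes on mouse chromosome 7 that encode zinc finger proteins with a SCAN domain. Its members were taken by name and place, namely the protein-coding genes Zscan4b, Zscan4c, Zscan4d, Zscan4e and Zscan4f of the GENCODE annotation, without use of any measured value. They are 5 of 21938 protein-coding genes on the 19 autosomes, X and Y. The cluster was taken from the start of Zscan4b to the end of Zscan4f (mm10, chromosome 7, 10900740 to 11402318, 501.6 kb), of which the 5 genes hold 4.51% of the bases. The rest of it holds 22 annotated pseudogenes, 3 miRNA genes and the further gene Zscan4-ps1. GENCODE lists Zscan4-ps1 as protein-coding too, but it was not taken as a member and counts with the sequence between the genes. For each gene body, each promoter (1 kb either side of the annotated start) and the whole cluster, the share of bases lying under H3K9me3 peaks was measured in each of 10 deposited peak lists, together with the fold of the peaks, which is the peak caller's ratio of precipitate over input.

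H3K9me3 had been profiled with native ChIP-seq for ultra-low input in cumulus cells (CC), in embryos made from them by somatic cell nuclear transfer (SCNT), and in fertilized zygotes at pronuclear stage 5 (PN5). The SCNT lists are 6 hpa and 14 hpa (hours post activation, both in the 1-cell embryo), 2-cell, 4-cell, 8-cell, morula, and both parts of the E4 blastocyst, ICM (the inner cell mass) and TE (its outer layer, the trophectoderm), which had been separated by micromanipulation. CC came with the oocytes from superovulated B6D2F1 females of 8 to 10 weeks, enucleated oocytes of the same cross received the CC nucleus, and all SCNT embryos were activated with SrCl2 in the presence of cytochalasin B. For PN5 zygotes the labels name C57BL/6 females mated with C57BL/6 males, and the study took its fertilized H3K9me3 data from earlier work, so that embryo type, strain and experiment cannot be told apart in any comparison with PN5. The labels give 2 to 7 precipitated libraries for each list, pooled before peaks were called after the same number of reads had been drawn for each group. Each stage therefore gave 1 value without a replicate error, no test between stages was possible. A base outside peaks had no enrichment past the caller's threshold, which does not show that the mark was absent from it. The lists covered between 134 Mb (PN5) and 255 Mb (CC) of the genome.

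Zscan4 genes are expressed in a short burst at the 2-cell stage of the mouse embryo, when the embryonic genome becomes active, and in a small fraction of embryonic stem cells at any time. Their proteins are known for roles in telomere maintenance and genome stability, and the genes are targets of the transcription factor DUX, itself a gene of the 2-cell stage. H3K9me3 is the histone mark of constitutive heterochromatin, which covers repeats and, in somatic cells, clusters of repeated genes that are used only in the embryo or germ line.

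The genes are copies of each other, which bears on what a peak at any of them can show. Over the gene body, identity was 99.5% between Zscan4b and Zscan4e and 99.4% between Zscan4c and Zscan4f, and 96.3% to 97.2% for the 8 other pairs. The share of 100-base words of the gene body that occur once in the genome was 79.2% for Zscan4d, 35.3% for Zscan4b, 33.5% for Zscan4e, 22.7% for Zscan4c and 9.57% for Zscan4f. Zscan4d is thus the member whose peaks rest most on reads of its own, while a peak at Zscan4f may draw on reads of other copies. The annotation also differs on Zscan4e, which GENCODE lists as protein-coding and RefSeq as a pseudogene.

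All 5 promoters held the 11-base motif of mouse DUX once each. It was searched on both strands with any base allowed at its centre, and as a palindrome it reads the same on either. Of all 21938 protein-coding promoters of the same width, 0.178% held it, 39 in number. The site was 308 bases before the annotated start in Zscan4b and Zscan4e, 309 in Zscan4f, 331 in Zscan4d and 332 in Zscan4c. The 100 bases around each site follow, from GRCm38.p6 in the direction of the gene and with the motif in capitals, because all 5 sites lay under peaks in CC alone.
Zscan4b (chr7:10905304-10905403, minus strand): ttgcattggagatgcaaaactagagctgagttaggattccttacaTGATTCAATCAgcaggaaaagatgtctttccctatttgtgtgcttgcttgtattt
Zscan4c (chr7:11005368-11005467, plus strand): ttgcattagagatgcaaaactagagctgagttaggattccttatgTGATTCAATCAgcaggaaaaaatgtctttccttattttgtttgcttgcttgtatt
Zscan4d (chr7:11166436-11166535, minus strand): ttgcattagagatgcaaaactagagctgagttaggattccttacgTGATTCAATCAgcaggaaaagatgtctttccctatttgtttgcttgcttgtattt
Zscan4e (chr7:11310936-11311035, minus strand): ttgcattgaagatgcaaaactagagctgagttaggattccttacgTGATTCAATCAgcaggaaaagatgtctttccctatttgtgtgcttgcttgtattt
Zscan4f (chr7:11397561-11397660, plus strand): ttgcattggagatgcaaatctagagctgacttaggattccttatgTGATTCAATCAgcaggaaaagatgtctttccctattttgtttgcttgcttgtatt
Each site lay wholly under a CC peak in all 5 genes. Of all promoters, 5.26% were marked in CC (covered to 50% or more) and 87.5% held no peak. When the CC list was cut to the covered length of the shortest list, by leaving out its peaks of lowest −log10 q, this held in 2 genes, Zscan4e and Zscan4f. At 14 hpa the site of Zscan4b was covered over 8 of its 11 bases, by a peak with a −log10 q of 1.65. No peak touched a site in any other gene at 14 hpa, or in any gene in the 8 further lists. Of all promoters, 65.6% (6 hpa), 86.9% (14 hpa) and 88.5% to 93.7% (2-cell to TE and PN5) held no peak. An untouched site was thus the common state outside CC. A match of letters is a description and shows no binding.

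All 5 gene bodies lay mostly under peaks in CC, were partly covered in both 1-cell lists and almost bare of peaks thereafter. Zscan4e and Zscan4f were covered to 100% in CC, Zscan4b to 85.3%, Zscan4c to 83.8% and Zscan4d to 70.5%. What was left bare in CC was most of intron 1 of Zscan4b, exon 1 and intron 1 of Zscan4c and, in Zscan4d, exon 3, intron 3 and most of exon 4, which was covered to 36.1%, besides shorter gaps. A gene was called marked with 50% or more of its bases under peaks. By this measure 5 of 5 members were marked in CC, against 4.76% of all protein-coding genes and 6.13% of the 3477 genes of 3 to 7 kb. The call for Zscan4d rested on peaks of low −log10 q. In the CC list cut in the same way its coverage was 11.6%, and 4 of 5 members were marked.

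At 6 hpa the members ranged from no peak to partial coverage. Zscan4f was covered to 53.7%, Zscan4c to 33.4%, Zscan4e to 33.1% and Zscan4d to 28.6%. Zscan4b held no peak, as did 37.7% of all genes and 56.1% of those of 3 to 7 kb. At 14 hpa Zscan4e was covered to 57.6%, Zscan4b to 49.8%, Zscan4c to 34.5%, Zscan4f to 32.7% and Zscan4d to 14.8%. Both lists had 1 marked member, a different one in each, where 3.83% (6 hpa) and 3.40% (14 hpa) of all genes were marked. Several of these peaks were weak. Among peaks with −log10 q of at least 2, coverage at 6 hpa was 0% in Zscan4e and 40.9% in Zscan4f, so that 0 members were marked, and at 14 hpa it was 33.3% in Zscan4b. All 5 members were lower by at least 25 percentage points than in CC at 6 hpa and at 14 hpa. Of all genes, 4.33% and 3.10% were lower by as much, and on chromosome 7 alone 13.1% and 11.1%. In lists cut to the shortest, 4 of 5 members were lower by as much in each, and Zscan4d turned direction at 6 hpa, with 28.6% against 11.6% in CC. Between the 1-cell lists the members went in both directions. Zscan4b was 49.8 points higher at 14 hpa than at 6 hpa, the 1 member higher by at least 25 points, where 2.23% of all genes were. Zscan4b and Zscan4e were both higher by as much among peaks with −log10 q of at least 2, and in lists cut to the shortest. Zscan4f was lower by 20.9 points.

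In 2-cell SCNT embryos 4 of 5 gene bodies held no peak at all and the remaining 1, Zscan4e, was covered to 1.65% at its 3′ end. The genes are active at this stage in fertilized embryos, whereas the study describes Zscan4d as repressed in SCNT embryos. It reports H3K9me3 at that locus that persists up to the 2-cell stage, read from signal tracks. From H3K9me3 signal it also lists Zscan4 family genes among genes of minor genome activation that are restricted in SCNT embryos and carry the persistent mark. Peak lists and such signals are different measures and were not compared here. Genes without a peak were common at this stage, 66.6% of all genes and 79.8% of those of 3 to 7 kb. Among the 1044 genes that were marked in CC they were only 23.7%. Against CC, 5 of 5 members were lower by at least 25 points, where 5.63% of all genes were. From the 4-cell stage to the blastocyst, Zscan4d and Zscan4f had no peak in any list, and Zscan4c had a single peak of 140 bases at the 8-cell stage. Zscan4b kept some coverage in every list of this period, with 6.22% (4-cell), 25.5% (8-cell), 8.70% (morula), 5.54% (ICM) and 12.4% (TE). Zscan4e was covered to 14.0% and 13.5% in the 4-cell and 8-cell lists, and by no peak in morula, ICM or TE. No member was marked in PN5 or in any SCNT list after 14 hpa. The shares of all genes marked were 1.98% (2-cell), 2.26% (4-cell), 2.23% (8-cell), 1.68% (morula), 1.08% (ICM), 0.843% (TE) and 1.95% (PN5). Genes with no peak were 65.0% (4-cell), 61.6% (8-cell), 60.4% (morula), 60.0% (ICM) and 59.4% (TE) of all genes, so a bare gene body was the common state in these lists.

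In fertilized PN5 zygotes no member held a peak. Among all genes 45.7% had none, among genes of 3 to 7 kb 73.1%, and among those marked in CC 50.2%. All 5 were lower than in CC by at least 25 points, where 6.48% of all genes were. Set against 14 hpa, the SCNT list closest in time to PN5, 4 of 5 members were at least 25 points lower in PN5, where 4.90% of all genes were, and 2 of 5 when lists were cut to the shortest. The exception was Zscan4d, which had only 14.8% to begin with.

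The promoters were marked in CC alone. Those of Zscan4e and Zscan4f were covered to 100%, that of Zscan4d to 99.4%, that of Zscan4b to 66.2% and that of Zscan4c to 57.5%, so that 5 of 5 were marked where 5.26% of all promoters were. In the CC list cut to the shortest, 2 of 5 were, with 100% in Zscan4e and Zscan4f, 13.3% in Zscan4b, 11.0% in Zscan4c and 0% in Zscan4d. At 6 hpa the highest was 9.45% (Zscan4c) and the promoter of Zscan4b held no peak, where 65.6% of all promoters had none and 8.56% were marked. At 14 hpa Zscan4f was covered to 41.4%, Zscan4e to 22.2%, Zscan4c to 18.5%, Zscan4b to 16.8% and Zscan4d held no peak, where 86.9% of all promoters had none and 4.74% were marked. In PN5 and the SCNT lists after 14 hpa, the single member promoter with a peak was that of Zscan4c in 8-cell embryos (6.75%). Of all promoters, those with no peak were 90.0% (2-cell), 91.1% (4-cell), 90.6% (8-cell), 92.7% (morula), 93.7% (ICM), 93.7% (TE) and 88.5% (PN5), and those marked were 3.10%, 2.78%, 2.45%, 1.87%, 1.34%, 1.17% and 3.58% in the same order, so a promoter without a peak was the common state.

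Within the gene the 1-cell lists were not even. Each member has 4 exons in its longest transcript. Exon 1 is short and noncoding, exon 2 is 472 bases long in every member and holds the start codon and 375 coding bases, and exon 4 encodes the zinc fingers at the end of the protein. Exon 1 was covered to 76.7% over the 5 members together in CC and held no covered base in any member at 6 hpa or 14 hpa. For exon 2 the values of CC, 6 hpa and 14 hpa were 97.2%, 61.7% and 59.9%. In 6 hpa embryos every covered base of the promoters lay after the start of the gene, whereas at 14 hpa the promoters of Zscan4b and Zscan4e were covered on both sides of it. The peaks before the start had a −log10 q of only 1.65 in Zscan4b and 1.57 in Zscan4e. Without peaks under 2, the promoter of Zscan4b was bare at 14 hpa and that of Zscan4e was covered to 8.85%.

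**Figure D1:**
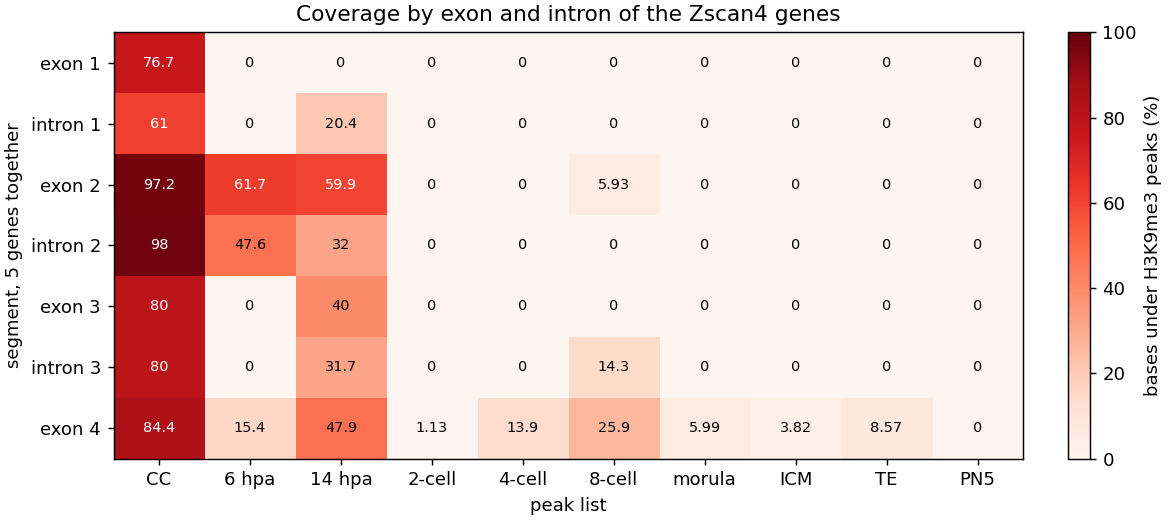
Share of bases under H3K9me3 peaks (%) in each exon and intron of the longest transcript, summed over the 5 Zscan4 genes (rows, in the direction of the gene), in each of the 10 peak lists (columns). At 6 hpa the covered bases are in exon 2, intron 2 and, through Zscan4f alone, exon 4, and exon 1 is at 0 in every list but CC.

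At 6 hpa, 4 of 5 members had a peak that opened at nearly the same place in exon 2. It began 812 bases after the gene start in Zscan4c, 816 in Zscan4f, 826 in Zscan4e and 880 in Zscan4d, and it ended in intron 2, 1653 bases after the start in Zscan4f, 2250 in Zscan4d and Zscan4e and 2415 in Zscan4c. It covered 64.8% of exon 2 in Zscan4d, 79.2% in Zscan4c, 81.4% in Zscan4e and 83.3% in Zscan4f. The peak of Zscan4e had a −log10 q of 1.71 and those of the other 3 had 2.64 to 4.61, so that 3 members were left with exon 2 covered to 50% when peaks with −log10 q under 2 were left out. At this stage 7.83% of second exons were covered to at least 50%, over 18394 protein-coding genes with at least 3 exons. No 100-base word of exon 2 is unique in Zscan4c, Zscan4e or Zscan4f, so the part of these 3 peaks in exon 2 cannot be assigned to separate copies. Over the whole of intron 2, unique words are 23.3% in Zscan4c, 45.8% in Zscan4e and 9.10% in Zscan4f. In exon 2, 81.5% of the words are unique in Zscan4d and 26.8% in Zscan4b, which had no peak.

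At 14 hpa exon 2 was again covered to at least 50% in 4 of 5 members, but not in the same ones, and 4.86% of second exons were. The values were 88.1% in Zscan4c, 81.8% in Zscan4e, 71.8% in Zscan4b and 57.6% in Zscan4f, with none in Zscan4d, whose peak lay farther on in intron 2. Of these 4 members, 3 were left with −log10 q of at least 2 and 1, Zscan4e, in lists cut to the shortest. The peak of Zscan4c at the 8-cell stage fell in the same exon, from 866 to 1005 bases after the start. No other member had a covered base in exon 2 from the 2-cell stage on.

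Exon 2 also holds the 7-base motif TGCACAC attributed to ZSCAN4 itself, on the strand opposite to the gene, 884 to 908 bases after the start in all 5 members. This is a short word. On both strands it was found in 29.7% of all promoters, each member holding it once. The word was wholly covered in all 5 members in CC, in 4 at 6 hpa (not Zscan4b), in 4 at 14 hpa (not Zscan4d) and in Zscan4c at the 8-cell stage. The first 200 coding bases of exon 2 of Zscan4d, the most distinct copy, are shown because this is where the 1-cell peaks lay, from the start codon on and with the word in capitals as it reads along the gene.
Zscan4d (chr7:11165149-11165348, minus strand): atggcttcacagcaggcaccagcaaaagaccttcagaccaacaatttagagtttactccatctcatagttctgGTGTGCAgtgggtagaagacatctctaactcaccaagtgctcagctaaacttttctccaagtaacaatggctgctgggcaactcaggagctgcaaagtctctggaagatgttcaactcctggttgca

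**Figure D2:**
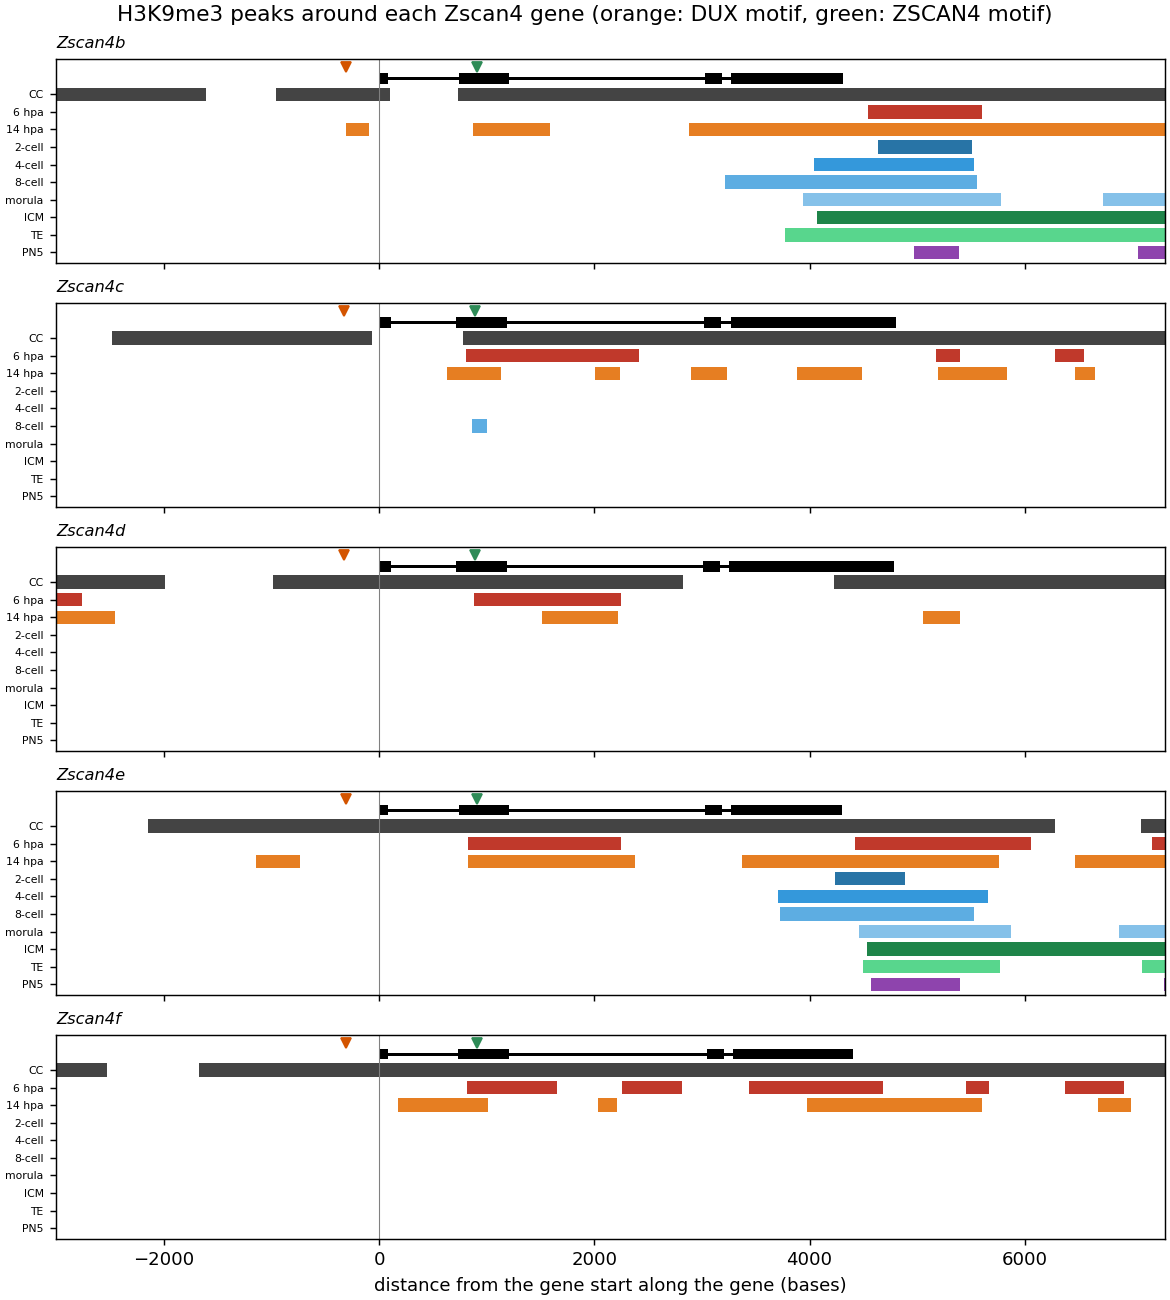
H3K9me3 peaks (bars, 1 row for each of the 10 lists) around each Zscan4 gene by distance from the gene start in bases along the gene, with exons as black boxes, the DUX motif as an orange mark and the ZSCAN4 motif as a green mark. The CC bars cross every DUX mark, the 6 hpa bars of 4 genes begin at the green mark in exon 2, and in the plotted range the bars of later lists lie at or past the 3′ ends of Zscan4b and Zscan4e, with 1 more in exon 2 of Zscan4c (8-cell).

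The members parted at their 3′ ends in the blastocyst and in PN5. Over the 5 kb after the gene, Zscan4b was covered to 66.8% in ICM, 65.0% in TE and 43.3% in PN5, and Zscan4e to 63.9%, 38.5% and 30.7%. The same flank of Zscan4c, Zscan4d and Zscan4f held no peak in these 3 lists. In 2-cell embryos the flanks did not divide this way, with 23.3% in Zscan4d, 17.5% in Zscan4b, 14.4% in Zscan4f, 11.6% in Zscan4e and no peak in Zscan4c. In the 3 lists between, Zscan4b had 24.3% to 43.1% and Zscan4e 24.5% to 39.0%, while the other 3 had at most 5.36%. The partial coverage of Zscan4b and Zscan4e after the 14 hpa stage lay at this end. Exon 4 of Zscan4b had 100% of its bases under a peak in 8-cell embryos and 51.5% in TE, and exon 4 of Zscan4e had 58.3% (4-cell) and 56.3% (8-cell).

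One stretch of 310 bases, 269 bases past the end of Zscan4e (chromosome 7, 11305799 to 11306108), was under a peak in all 10 lists, with folds between 2.67 and 3.85. Its PN5 peak had a −log10 q of 1.58, so without peaks under 2 the stretch was bare in PN5. A copy with 100% identity over its 310 bases lies 258 bases past the end of Zscan4b (10900172 to 10900481). That copy was covered to 100% in CC, in both 1-cell lists and from the 4-cell stage to the blastocyst, to 78.7% at the 2-cell stage and not at all in PN5. Since both copies are identical and no 100-base word of the stretch is unique, the lists cannot say which copy carried the mark. No match of more than 22 aligned bases was found in the 5 kb after Zscan4c, Zscan4d or Zscan4f. Its GC content was 55.8%, above the 39.6% to 40.1% of the gene bodies. Its central 300 bases are shown with each CpG in capitals, as the sequence next to a member that lay under peaks in every list as deposited.
Stretch past Zscan4e (chr7:11305804-11306103, minus strand): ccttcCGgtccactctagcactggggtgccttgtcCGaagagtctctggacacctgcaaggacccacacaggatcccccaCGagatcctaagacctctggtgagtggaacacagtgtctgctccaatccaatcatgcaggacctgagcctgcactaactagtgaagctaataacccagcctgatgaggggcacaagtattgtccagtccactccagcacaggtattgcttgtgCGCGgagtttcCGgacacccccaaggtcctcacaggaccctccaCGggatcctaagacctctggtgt

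Across the whole cluster coverage was also lower in every other list than in CC, and the sequence between the genes was covered more than the genes. The share of the cluster under peaks was 90.6% (CC), 47.9% (6 hpa), 62.8% (14 hpa), 23.0% (2-cell), 17.4% (4-cell), 17.3% (8-cell), 23.0% (morula), 21.0% (ICM), 19.3% (TE) and 7.91% (PN5). The Wilson intervals from the 2-cell stage to TE, with each 1 kb counted as 1 unit and covering counting error only, all overlapped, with bounds between 14.3% and 27.0%. Those of 6 hpa (43.6% to 52.3%) and 14 hpa (58.6% to 67.0%) did not. The order of these lists turned when every list was cut to the covered length of the shortest, which gave 46.1% at 6 hpa and 33.3% at 14 hpa. In CC, 0.414% of 5315 windows of 500 kb over the genome were covered at least as much, 2.54% at the 2-cell stage and 17.5% in PN5.

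**Figure D3:**
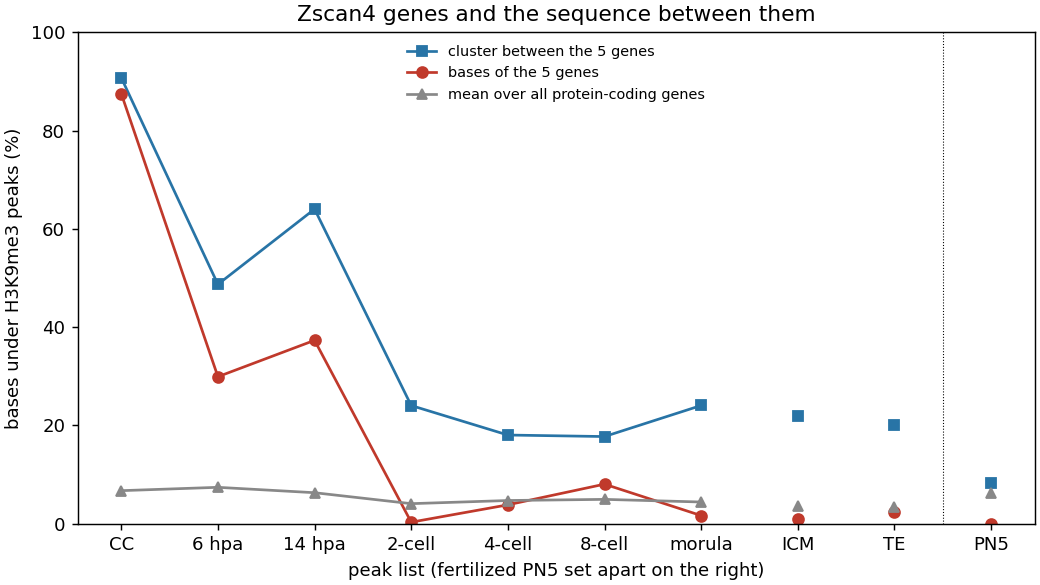
Share of bases under H3K9me3 peaks (%) in the 5 Zscan4 genes (circles), in the sequence of the cluster between them (squares) and on average over all protein-coding genes (triangles) in each list, with lines joining CC to morula and single points for ICM, TE and PN5. Genes and intervening sequence start together in CC, and the genes lie below the sequence between them in every other list.

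In CC the genes and the sequence between them were alike, with 87.5% and 90.7% of bases covered. At 6 hpa the values were 29.9% and 48.7%, at 14 hpa 37.3% and 64.0%, and at the 2-cell stage 0.314% and 24.0%. In ICM they were 1.06% and 21.9%, in TE 2.37% and 20.1%, and in PN5 0% and 8.28%. The genes had the lower value in all 10 lists. They also differ in composition, with 39.6% to 40.1% GC and 16.3% to 18.3% soft-masked, against 41.9% and 53.7% in the whole cluster. At the 2-cell stage, the cluster's 1-kb windows marked in CC were still marked to 3.62% under 40% GC. From 40 to 45% GC this was 16.0%, and above it 48.1%. Whether the genes differ from sequence of like GC was not tested. For comparison, the mean over all protein-coding genes was 6.73% in CC and 4.08% at the 2-cell stage, and the median was 0% in both. The members thus stood far above mean and median in CC, and at the 2-cell stage under the mean but not under the median.

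**Figure D4:**
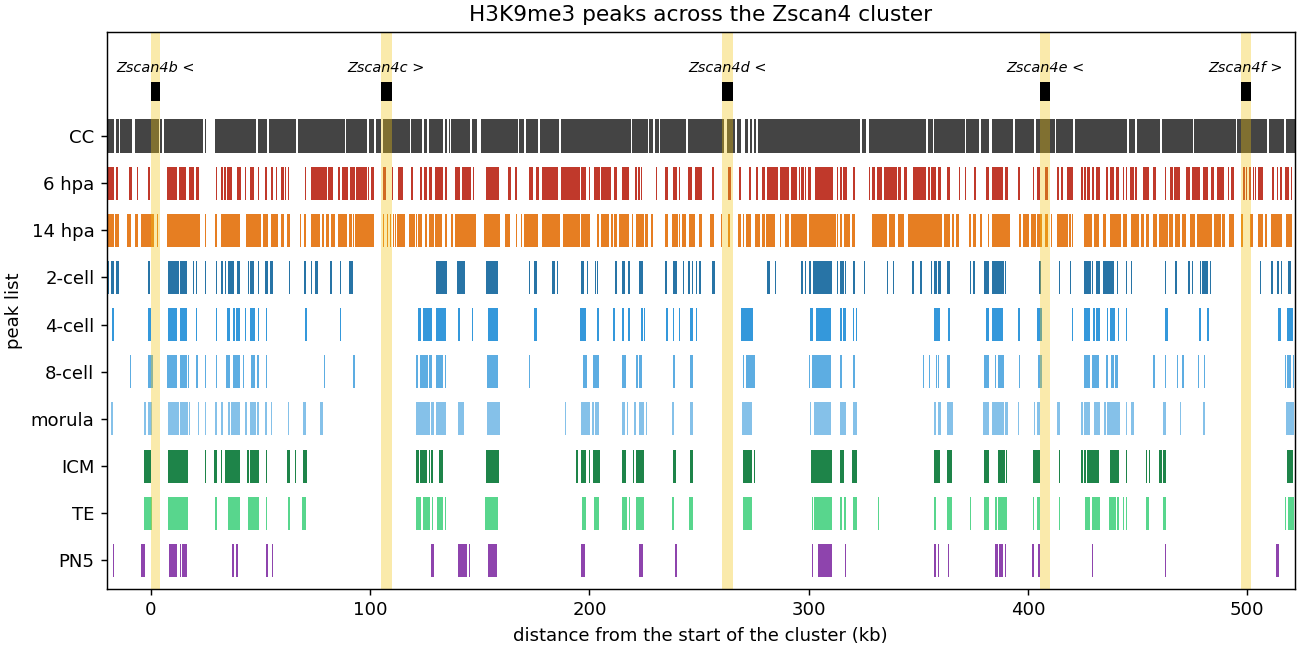
H3K9me3 peaks (bars) of each of the 10 lists along the cluster by distance from its start in kb, with 20 kb on either side, the 5 Zscan4 genes as black boxes with yellow columns and arrows for their direction. The bars of CC fill the cluster and those of the other lists stand in blocks that recur between the genes. The columns of the genes are almost empty in PN5 and from the 2-cell stage on.

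The bases that kept a peak throughout lay outside the genes. Under peaks in all 10 lists were 16 stretches with 20931 bases, 4.17% of the cluster, and no base of them lay in a member. Soft-masking, which marks repeats without naming them in this sequence, covered 92.1% of these bases and 53.7% of the cluster. The longest, of 5962 bases, lay in the processed pseudogene Gm9689, 38.6 kb from Zscan4d, with folds from 3.04 (PN5) to 5.17 (ICM). The next, of 4343 bases, lay in no annotated gene 43.8 kb from Zscan4c, and its median 100-base word occurs 231 times in the genome. The central 300 bases of the Gm9689 stretch are given with each CpG in capitals, as the sequence of the cluster that carried the longest mark common to all lists.
Gm9689 (chr7:11207604-11207903, minus strand): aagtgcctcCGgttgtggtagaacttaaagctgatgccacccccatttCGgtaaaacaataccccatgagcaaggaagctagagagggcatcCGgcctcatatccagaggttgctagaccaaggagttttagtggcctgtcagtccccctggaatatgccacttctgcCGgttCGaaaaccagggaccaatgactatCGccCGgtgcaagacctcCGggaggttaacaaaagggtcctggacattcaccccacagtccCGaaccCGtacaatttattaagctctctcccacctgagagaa

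Peak fold, which is a height and not an extent, did not order the lists as coverage did. The mean fold over covered bases of the cluster, weighted by length, was 3.20 (CC), 3.14 (6 hpa), 3.03 (14 hpa), 3.51 (2-cell), 3.49 (4-cell), 3.26 (8-cell), 3.85 (morula), 4.11 (ICM), 3.88 (TE) and 3.08 (PN5). Over the whole lists it was 2.97 in CC, 3.08 at 14 hpa, 3.45 at the 2-cell stage, 3.64 in ICM and 2.97 in PN5. The cluster's value was below that of its list at 14 hpa and above it in every other list. Within the genes it was 3.40 over Zscan4e and 2.91 over Zscan4f in CC, both under 1 peak. The longest CC peak of the cluster, 46534 bases with a fold of 3.28, held Gm6909 and Gm9689. The highest fold in the cluster was 6.29, in ICM, at a peak of 5815 bases 43.2 kb from Zscan4c and in no annotated gene.

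Of the 501 1-kb windows of the cluster 454 were marked in CC. The share of them also marked in another list differed from the genome in a way that depended on the list. At 6 hpa 50.9% of them were marked (interval 46.3% to 55.5%), against 34.9% of all CC windows, and at 14 hpa 65.0% against 54.6%. At the 2-cell stage 21.4% were (17.8% to 25.4%), against 29.5%, in ICM 20.9% against 35.2%, and in PN5 7.93% against 16.6%. The cluster thus kept more than the genome in both 1-cell SCNT lists and less in the SCNT lists from the 2-cell stage on. PN5 zygotes do not come from CC, so their lower share is an overlap and not a mark kept. Windows of 45% GC and above were kept to 88.4% at 6 hpa and 48.1% at the 2-cell stage, and those under 40% GC to 14.5% and 3.62%. The direction against the genome was the same in each of the 3 GC classes at 6 hpa and at the 2-cell stage. The 2-cell class under 40% GC rests on 5 of 138 windows, and its interval (1.56% to 8.20%) holds the genome's 4.48%. In morula the direction turned in that class, with 18.1% against 17.4%. Neighbouring windows are not independent.

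Nearly all that was marked in PN5 in the cluster was also marked at 14 hpa, 97.4% of its 39.7 kb, whereas PN5 held 12.3% of the 315 kb of 14 hpa. CC peaks held 99.5% of the PN5 bases. Lists that long hold much of any shorter one in this cluster.

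The 4 other Zscan4 copies of the region were also highest in CC. Zscan4a, annotated as a pseudogene and lying before the cluster, had 79.8%, 8.74% and 61.0% of its bases covered in CC, 6 hpa and 14 hpa. Zscan4-ps1, inside it, had 85.2%, 19.4% and 6.46%. Zscan4-ps2 and Zscan4-ps3, which lie beyond it and past the stated region, had 100%, 36.0% and 72.4%, and 94.8%, 22.8% and 35.6%. None of the 4 gene bodies held a peak in PN5 or in an SCNT list later than 14 hpa. The DUX motif was present in the promoters of Zscan4-ps1, Zscan4-ps2 and Zscan4-ps3, which with the 5 members make 8 of the 39 promoters that hold it. Of the 31 others, 5 were marked in CC and 25 held no peak, and 0 were marked at the 2-cell stage. Of all promoters 5.26% were marked in CC and 87.5% held no peak, and 3.10% were marked at the 2-cell stage. The counts without a peak and at the 2-cell stage were thus near the background. The 5 marked in CC were Gm6351, Gm7942, Gm7982, Usp17lb and Usp17lc, named after their values were seen.

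Among all genes other than the members, the coverage pattern over the 10 lists closest to the mean of the members, by mean absolute difference, was that of the copy Zscan4-ps3 (3.43 points), then, outside the family, Trim43b on chromosome 9 (3.44), Ctsr on chromosome 13 (4.14), D5Ertd577e on chromosome 5 (4.26) and Nlrp2 on chromosome 7 (4.30). The median over all genes was 17.4 points. The pattern was not confined to the members, since 156 other genes were closer to their mean than Zscan4b, the farthest member (8.53 points). Likeness of this measure says nothing of function. Among 21 other genes of the 2-cell stage, those marked numbered 9 (CC), 9 (6 hpa), 8 (14 hpa), 3 (2-cell) and 1 (PN5). Of all genes 4.76%, 3.83%, 3.40%, 1.98% and 1.95% were marked in the same order. Duxf3, one of the Dux copies, was under peaks over 100% of its bases in CC and 2-cell and over 63.8% in PN5. Usp17lb, Tdpoz3 and Tdpoz4 also had 100% in CC, with 6.82%, 95.9% and 0% at the 2-cell stage. Of 11 Zscan genes outside the Zscan4 family 0 were marked in CC, the highest being Zscan5b (34.1%), Zscan18 (13.7%) and Zscan20 (12.3%). With 4.76% of all genes marked in CC, a count of 0 in so few genes was the common state.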

How the data were processed

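The labels give 74 libraries in 20 groups, 41 precipitates and 33 inputs, behind 10 peak lists. The authors trimmed reads with cutadapt 1.16, aligned them to mm10 with BWA mem, merged libraries with SAMtools, removed duplicates and drew the same number of reads with Picard, and called broad peaks over input with MACS2. Versions of the other tools and the threshold are not given in the sources used here. The deposited lists hold for each peak a fold ratio over input, −log10 p and q values and a score made from q. The score and p were not used here, and each column was matched to a group (0 left over).

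Coverage was computed in bases from merged peaks with numpy 2.4.6 in Python 3.11.15 (coordinates 1-based, GRCm38.p6, GENCODE M21), and intervals are Wilson 95% intervals from scipy 1.17.1. Copies of 100-base words were counted on both strands of the 21 chromosomes with numba 0.67.0, and identity came from Biopython 1.88 alignments. The coverage code was tested on simulated data. A gene, promoter, exon or window was marked at 50% of its bases, and a change was called at 25 percentage points. Named genes were the 5 members, other Zscan4 genes of the region, the 5 closest patterns, the highest 3 in CC of each gene list and the longest and highest peaks. Of 51 further genes in the region 41 were covered to 100% in CC, and the rule naming 5 of them was then tied. They are given in the closing section, the longest first. The search for a second exon, the coverage by exon and the copies past Zscan4b and Zscan4e were chosen after the values were seen. Members and lists were chosen with earlier results of these data known. Alternatives were a −log10 q of at least 2, lists cut to the shortest, other overlap thresholds, promoters of 1 kb before the start, a fixed span of 1 Mb, other backgrounds and the highest fold.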

Additional observations from a re-analysis of the deposited data

How the results depend on the processing

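No paired analysis was possible because each list was called on pooled libraries, so leaving out a replicate was not possible either. The lists hold no read counts, though groups had been brought to an equal number of reads by the authors, and they limit what can be seen at genes whose reads are shared among copies. The lower coverage in every other list than in CC kept its direction, for the cluster and for the members together. Peaks of −log10 q of at least 2 gave 58.4% (14 hpa) and 14.3% (8-cell) of the cluster, and left 0 marked gene bodies at 6 hpa. Lists cut to the shortest gave 86.4% (CC) and 33.3% (14 hpa) of the cluster, where fewer peaks of 14 hpa were left. In these lists 2 promoters were marked and 2 DUX sites wholly covered in CC, 0 gene bodies were marked at 6 hpa, 1 exon 2 was covered to 50% at 14 hpa, and members lower by 25 points were 3 from 6 hpa to 14 hpa, against 0 as deposited, and 2 from 14 hpa to PN5. Members higher by 25 points from 6 hpa to 14 hpa were 2 in these lists and 2 at −log10 q of at least 2, against 1 as deposited. Single members could turn: Zscan4d was higher at 6 hpa (28.6%) than in CC (11.6%) in the cut lists. The counts of members under both of these settings were added after seeing the data, and the share of all genes was not counted under either. The fixed 1-Mb region gave 84.7% (CC), 38.9% (6 hpa), 55.2% (14 hpa), 14.2% (8-cell), 19.6% (morula) and 17.6% (ICM).

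Counted from 1 base of a peak, gene bodies touched were 4 (6 hpa), 5 (14 hpa), 1 (2-cell), 2 (4-cell), 3 (8-cell) and 1 each in morula, ICM and TE, and promoters 4 (6 hpa), 4 (14 hpa) and 1 (8-cell). Of all genes, 37.7% (6 hpa), 54.0% (14 hpa) and 66.6% (2-cell) were touched by no peak, and 59.4% to 65.0% in the lists from 4-cell to TE. Of all promoters, 65.6% (6 hpa), 86.9% (14 hpa) and 90.6% (8-cell) were touched by none. From 25% of the bases, gene bodies were 4 (6 hpa), 4 (14 hpa) and 1 (8-cell), and promoters 1 (14 hpa). The share of all genes at this threshold was not counted. Promoters of 1 kb before the start gave the same counts in all 10 lists. With a change of 50 points, members lower than in CC were 3 (6 hpa) and 2 (14 hpa), 1 was lower in PN5 than at 14 hpa, and 0 were higher at 14 hpa than at 6 hpa. Of all genes, 1.81% (6 hpa) and 0.962% (14 hpa) were lower than in CC by as much. From 14 hpa to PN5 2.14% were lower, and from 6 hpa to 14 hpa 0.583% were higher. Over genes of 3 to 7 kb, a background added after seeing the data, 5.78% (6 hpa) and 7.85% (2-cell) were lower than in CC, and over chromosome 7 genes 16.3% (2-cell) and 17.7% (PN5).

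Windows kept from CC were 72.2%, 86.1%, 42.9%, 29.4%, 28.8%, 33.9%, 30.8%, 29.0% and 13.3% from 6 hpa to PN5 in the order of the lists when marked from 1 base, and 36.4%, 54.4%, 15.7%, 11.2%, 12.4%, 16.8%, 16.6% and 15.4% from 6 hpa to TE when marked at 80%. The highest fold in place of the mean was 3.59 (CC), 4.52 (6 hpa), 4.42 (14 hpa), 4.66 (2-cell), 4.70 (4-cell), 4.64 (8-cell), 5.51 (morula), 6.29 (ICM), 5.45 (TE) and 3.64 (PN5).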

Other observations

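The heavy coverage in CC was not bounded by the Zscan4 genes. The 200 kb before the cluster were covered to 86.4% and the 200 kb after it to 96.2%, and the next 200 kb on either side to 64.3% and 77.7%. At 6 hpa the same 4 stretches had 32.8%, 58.7%, 10.9% and 21.8%, against 47.9% in the cluster, and at the 2-cell stage 17.8%, 29.3%, 6.81% and 12.2%, against 23.0%. In PN5 the 200 kb after the cluster had 13.1%.

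The other annotated genes of the region are mostly pseudogenes, and of 51 in all, those marked were 50 (CC), 32 (6 hpa), 39 (14 hpa), 13 (2-cell), 5 (ICM) and 4 (PN5). The 5 longest of those covered to 100% in CC were Gm7203, Gm9689, Gm7207, Gm45549 and Gm45598. At the 2-cell stage they were covered to 53.4%, 93.1%, 36.8%, 25.5% and 42.9%, while 4 of the 5 Zscan4 genes held no peak. In PN5 Gm9689 was covered to 73.2% and Gm7207 to 3.16%, and the other 3 held no peak.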
